A study of Mus musculus with 8 samples.

Results

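The genes described here encode the aminoacyl-tRNA synthetases, the enzymes that join each amino acid to its transfer RNA. They were taken by gene symbol from a kidney expression table: 20 genes of cytosolic enzymes and 16 genes of mitochondrial enzymes, whose symbols end in 2, together 36 of the 21759 genes in the table. All 36 were present on a single line each, and all 36 had enough reads to be tested.

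Kidneys came from 8-month-old male knock-in mice of a MUC1 kidney disease model, 8 animals in all. In 4 mice the small molecule BRD4780 was given every day for 7 days at 50 mg/kg, and 4 mice received the saline vehicle on the same schedule; the sample titles call the treated arm AGN50. Every animal carried the knock-in allele, so the comparison is of drug with vehicle within the disease model, and no wild-type kidney was analysed here. The RNA is that of a sagittal kidney slice, sequenced in bulk, which mixes the cell types of cortex and medulla. Replicate numbers 1 to 4 within each group only name the animals, and equal numbers do not pair them.

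Cytosolic synthetases load the transfer RNAs that ribosomes in the cytosol use, and a separate set of nuclear-encoded enzymes is imported into mitochondria to serve the ribosomes there. Gars and Kars are exceptions, since each gene makes the glycine or lysine enzyme of both compartments. When amino acids run short, or when misfolded protein builds up in the endoplasmic reticulum or mitochondria, the transcription factor ATF4 is translated more and is known to bind the genes of many cytosolic synthetases, together with genes of amino acid synthesis and transport. The kidney proximal tubule takes up filtered amino acids and is rich in mitochondria, so both sets of enzymes are used in this tissue.

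Library depth was 5738647 to 28176628 counts in the BRD4780 group and 16635528 to 28547737 in the vehicle group. The shallow library was BRD4780 replicate 4. Over all 13474 genes tested, 310 were higher and 84 were lower with BRD4780 (edgeR quasi-likelihood test, Benjamini-Hochberg adjusted p under 0.05), and the median log2 fold change was 0.0097. BRD4780 replicate 3 stood apart from the other treated libraries: the mean of 28 ATF4 pathway genes, on a log2 scale relative to the vehicle mean, was 0.39 in it and 0.82 to 1.23 in the other treated libraries. Without it, 1647 genes were higher and 1537 were lower, so results are given with and without that library. Proximal tubule markers dominated the tissue, with a summed level of 12380 to 17607 CPM (counts-per-million, scaled by library) in BRD4780 libraries and 14607 to 15630 CPM in vehicle libraries. The summed level of 8 podocyte markers was 217 to 324 CPM with BRD4780 and 64.1 to 151 CPM with vehicle, and 4 of the 8 were called higher. That of 10 endothelial markers was 339 to 429 CPM with BRD4780 and 166 to 298 CPM with vehicle, and 4 of the 10 were called higher. That of 7 thick ascending limb markers was 2333 to 3743 CPM with BRD4780 and 3429 to 4591 CPM with vehicle, and 3 of the 7 were called lower. The other 6 lists (proximal tubule, distal and collecting segments, adipocyte, erythrocyte, immune and skeletal muscle) had 0 calls and overlapping sums. Of these, only 1 of 6 skeletal muscle, 4 of 6 adipocyte, 3 of 5 erythrocyte and 7 of 9 immune markers were tested. The expression table held 3 of 5 erythrocyte and 8 of 9 immune markers and every marker of the other lists. No marker that it held was at 0 in all libraries. The part of cell composition in the synthetase results was not tested.

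With BRD4780, the cysteine enzyme gene Cars rose 1.65-fold, and it was the only member of either set to pass the test. Most other cytosolic genes had small log2 fold changes above 0, and most mitochondrial genes had small ones below 0. In the cytosolic set 1 of 20 genes was called higher, against a background of 2.3% over all genes, and 0 of 20 were called lower, against 0.623%. In the mitochondrial set 0 of 16 were called in either direction, against 2.92%, and DESeq2's Wald test and limma-voom also called 0 of 16. A single call among 20 genes is close to the background share. At an unadjusted p under 0.05, 7 cytosolic genes were higher and 1 was lower, while 0 mitochondrial genes were higher and 3 were lower; over all genes those shares were 13.9% higher and 10.7% lower. The median log2 fold change was 0.18 over the cytosolic genes and -0.091 over the mitochondrial genes, and 13 of 20 and 3 of 16 genes lay above 0, where 51.6% of all genes did.

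**Figure D1:**
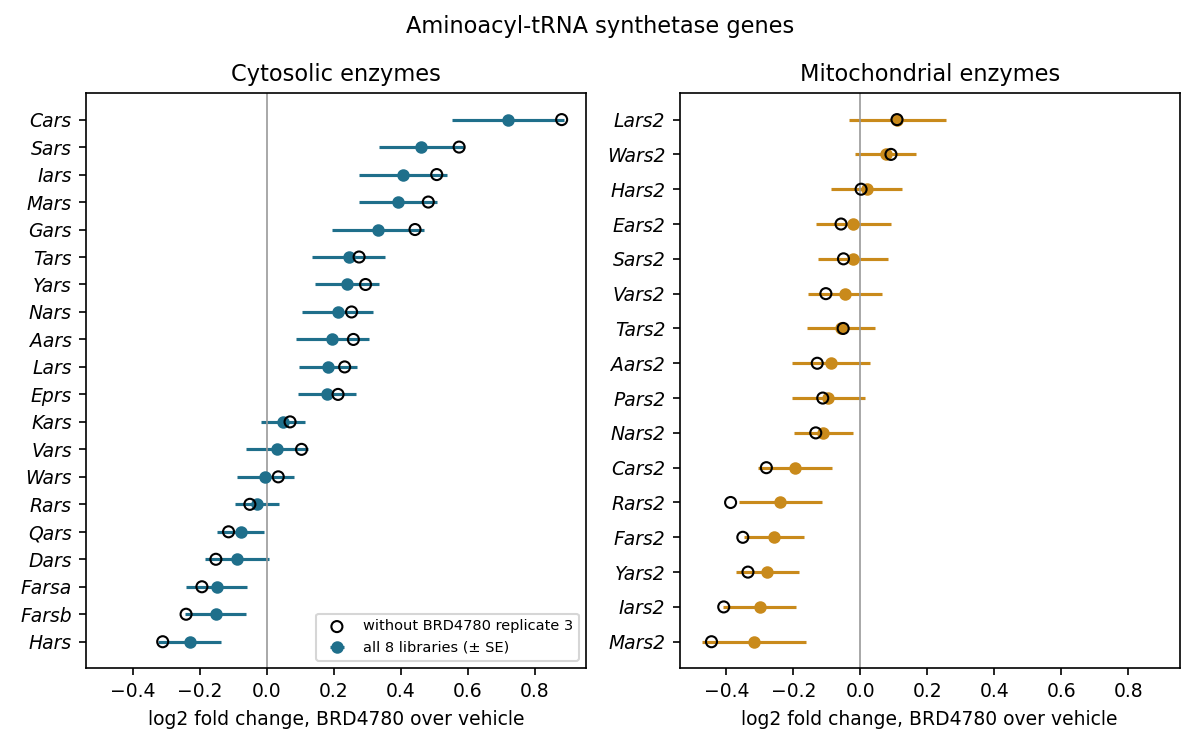
Log2 fold change of BRD4780 over vehicle for the 20 cytosolic (left) and 16 mitochondrial (right) synthetase genes. Filled points with bars are the estimate ± SE from all 8 libraries and open circles the estimate without BRD4780 replicate 3; Cars lies highest at 0.72 and Mars2 lowest at -0.32.

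Cars (chr7:143557230-143600090, minus strand, GRCm38) encodes the cytosolic cysteinyl-tRNA synthetase. Its level was 55.2, 57.4, 34.1 and 61.9 CPM in BRD4780 replicates 1 to 4 and 31.0, 35.9, 28.01 and 30.7 CPM in vehicle replicates 1 to 4. Replicates 1, 2 and 4 of the treated group lay above every vehicle library, and replicate 3 lay inside the vehicle range, so the groups overlapped. The mean was 52.1 ± 12.4 CPM with BRD4780 and 31.4 ± 3.29 CPM with vehicle (SD, n = 4 each). The log2 fold change was 0.72 ± 0.17 (SE), with an adjusted p of 0.0486 by edgeR's quasi-likelihood test. In a bulk sample, fewer cells of a type and less RNA per cell cannot be told apart, and this holds for every gene here. The call did not survive leaving out any 1 library other than BRD4780 replicate 3, nor a change to limma-voom, and its adjusted p ran from 0.000398 to 0.142 over 14 alternatives while its direction stayed the same.

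The cytosolic genes next in line to Cars encode the enzymes for serine, isoleucine, methionine and glycine, and none passed the test. Sars (chr3:108424865-108445209, minus strand) had 253, 279, 197 and 318 CPM in BRD4780 replicates 1 to 4 and 189, 199, 183 and 187 CPM in vehicle replicates 1 to 4. Iars (chr13:49682100-49734267, plus strand) had 62.2, 79.6, 55.3 and 87.2 CPM with BRD4780 and 54.6, 50.0, 53.4 and 55.3 CPM with vehicle. Every treated Iars value exceeded every vehicle value, though replicate 3 only barely, and Iars was the only one of the 36 genes whose groups were apart; over all genes 7.44% were apart upward and 5.16% downward. Mars (chr10:127296221-127311786, minus strand) had 78.5, 83.7, 65.0 and 96.7 CPM with BRD4780 and 60.5, 67.2, 54.6 and 63.3 CPM with vehicle. Gars had 127, 138, 101 and 167 CPM with BRD4780 and 98.4, 114, 114 and 96.0 CPM with vehicle. In all 4 genes replicate 4 was the highest of the treated libraries and replicate 3 the lowest. The log2 fold changes were 0.46 ± 0.13 for Sars, 0.41 ± 0.13 for Iars, 0.39 ± 0.12 for Mars and 0.33 ± 0.14 for Gars (SE), with adjusted p of 0.0750, 0.104, 0.0873 and 0.172 by the same edgeR test.

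**Figure D2:**
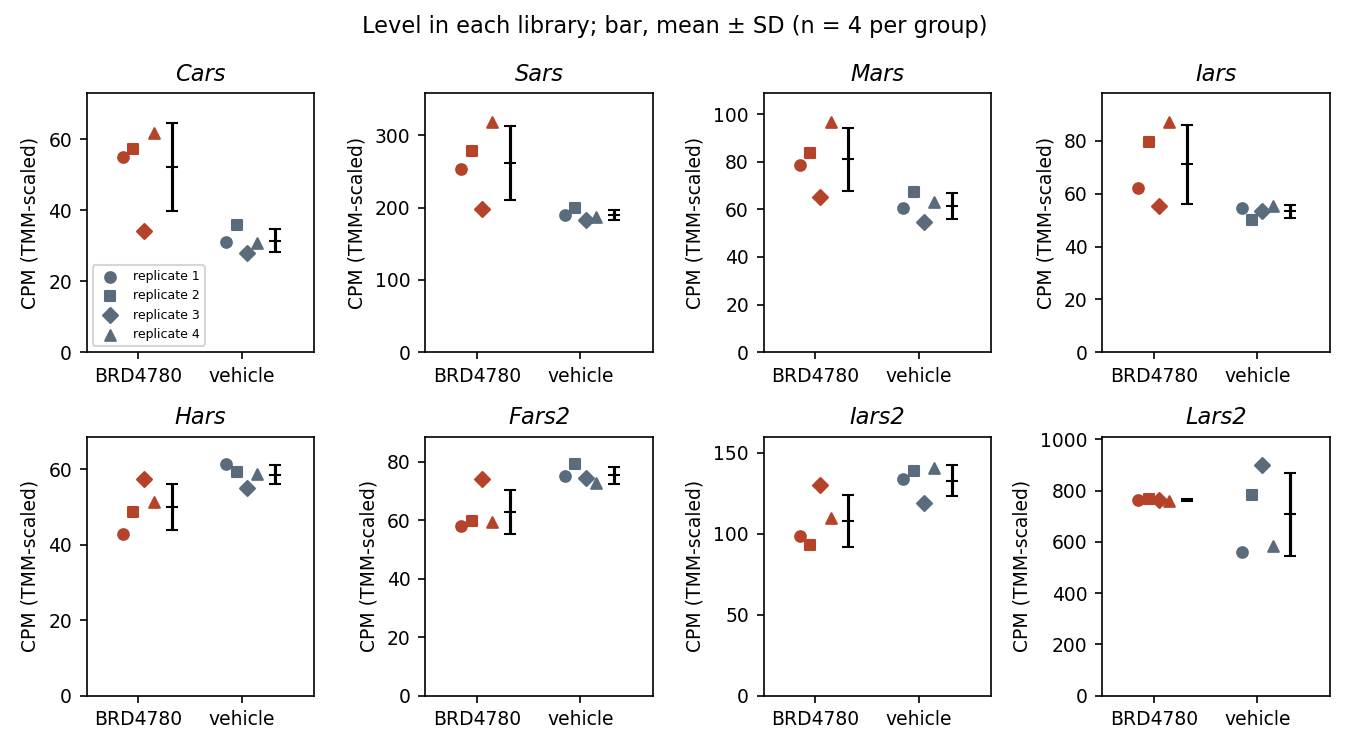
Level in each library, in TMM-scaled CPM, of 8 synthetase genes, with BRD4780 libraries (red) left of vehicle libraries (grey), a marker shape per replicate number, and the mean ± SD beside the points. For Cars, Sars, Mars and Iars the diamond of BRD4780 replicate 3 is the lowest treated point; for Hars, Fars2 and Iars2 it is the highest.

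The rest of the cytosolic set had smaller differences. The genes for the threonine (Tars), tyrosine (Yars), asparagine (Nars), alanine (Aars) and leucine (Lars) enzymes and Eprs, which makes a single protein with the glutamate and proline enzymes, had log2 fold changes of 0.18 to 0.24. Those for lysine (Kars, 0.049), valine (Vars, 0.030), tryptophan (Wars, -0.0041) and arginine (Rars, -0.030) were near 0. Below them lay the genes for glutamine (Qars, -0.078), aspartate (Dars, -0.089), both subunits of the phenylalanine enzyme (Farsa, -0.15; Farsb, -0.15) and histidine (Hars, -0.23). Hars had 42.8, 48.6, 57.5 and 51.2 CPM in BRD4780 replicates 1 to 4 and 61.4, 59.2, 55.1 and 58.7 CPM in vehicle replicates 1 to 4 (adjusted p 0.169, edgeR). Replicate 3 was here the highest of the treated libraries and the only one inside the vehicle range.

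The 13 cytosolic genes that are known as ATF4 targets are here called ATF4-linked and are set beside the other 7. The 13 are Aars, Cars, Eprs, Gars, Iars, Lars, Mars, Nars, Sars, Tars, Vars, Wars and Yars. These lists were chosen with earlier results of these data known, and the difference between them was not tested. Of the 13, 12 had a log2 fold change above 0, 1 was called higher, and the median was 0.24 with a range of -0.0041 to 0.72. Over all genes 51.6% lay above 0, 2.3% were called higher and 0.623% lower. The call here and that among the class I genes below are the same gene, Cars. Of the other 7, only Kars lay above 0, 0 were called, and the median was -0.089. Per library, the mean over the 13 genes on a log2 scale relative to the vehicle mean was 0.23, 0.35, 0.024 and 0.47 in BRD4780 replicates 1 to 4 and -0.080 to 0.067 in vehicle libraries. Replicates 1, 2 and 4 lay above all vehicle libraries, and replicate 3 among them. Over the other 7 genes the same mean was -0.15, -0.16, 0.017 and -0.10 in BRD4780 replicates 1 to 4 and -0.060 to 0.029 with vehicle, where again replicate 3 was the treated library inside the vehicle range. Placement in the multisynthetase complex, which holds several cytosolic enzymes on scaffold proteins, gave 0 calls and a median of 0.11 over its 8 enzyme genes (Dars, Eprs, Iars, Kars, Lars, Mars, Qars and Rars). By structural class, the 9 class I genes had 1 call and a median of 0.18 and the 10 class II genes 0 calls and a median of 0.12, Eprs holding a catalytic domain of each class.

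**Figure D3:**
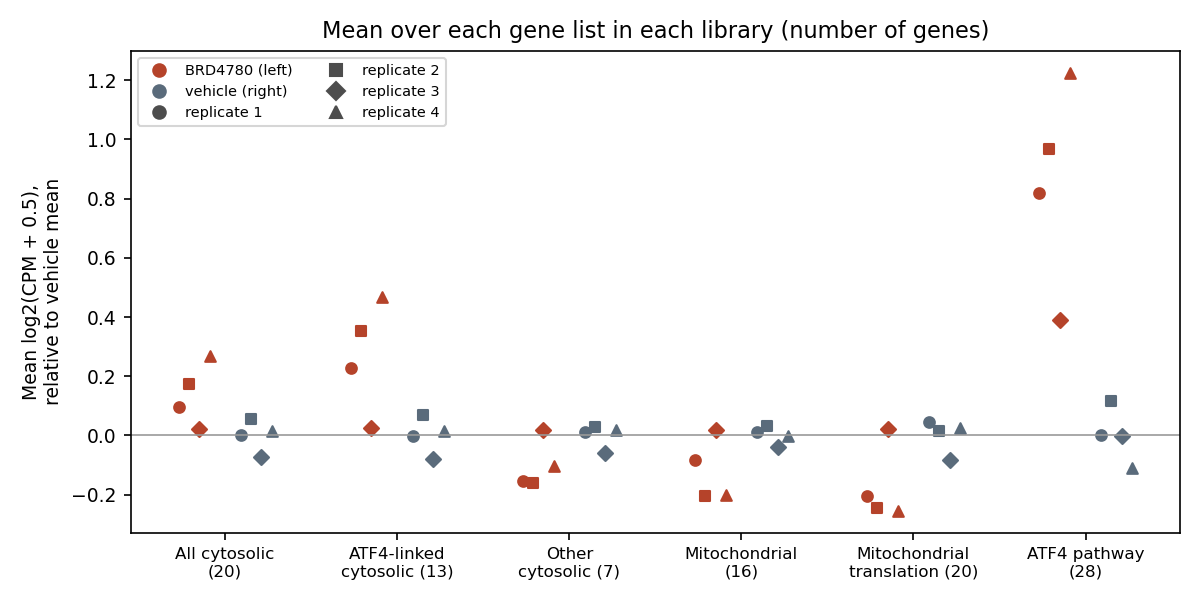
Mean of log2(CPM + 0.5) over each gene list in each library, relative to the mean of the vehicle libraries, with BRD4780 libraries (red) left of vehicle libraries (grey). The ATF4-linked cytosolic genes and the ATF4 pathway genes are lower in BRD4780 replicate 3 (diamond) than in the other treated libraries, and the mitochondrial lists are higher in it.

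ATF4 binds a composite element whose core reads TGATGNAA, of which TGATGCAA is a common form. RefSeq promoter windows of GRCm38.p6, running from 250 bases before to 50 after a gene's start, were found for 13 of the 20 cytosolic and 14 of the 16 mitochondrial genes, Mars under the symbol Mars1. Searched on both strands, TGATGNAA occurred for 5 of these 13 cytosolic genes (38.5%), for 0 of the 14 mitochondrial genes and for 4.51% of all 27025 genes with a window. TGATGCAA, whose matches are all matches to TGATGNAA too, occurred for 4 cytosolic genes and for 1.03% of all genes with a window. The 5 windows with a match are printed so that the element can be seen in its place. They lie at chr8:111033592-111033891 (Aars), chr6:55037751-55038050 (Gars), chr13:49681880-49682179 (Iars) and chr4:129189653-129189952 (Yars) on the plus strand and at chr15:11399609-11399908 (Tars) on the minus strand. Each is written in the direction of its gene, and capitals mark the matches, which read TTGCATCA or TTTCATCA where the motif is on the other strand.
Aars: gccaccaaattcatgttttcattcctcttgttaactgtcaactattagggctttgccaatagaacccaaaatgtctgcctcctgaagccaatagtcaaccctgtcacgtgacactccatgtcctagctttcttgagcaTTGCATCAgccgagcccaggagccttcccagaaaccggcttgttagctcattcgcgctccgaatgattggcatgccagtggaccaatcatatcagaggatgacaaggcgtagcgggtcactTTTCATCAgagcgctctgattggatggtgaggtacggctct
Gars: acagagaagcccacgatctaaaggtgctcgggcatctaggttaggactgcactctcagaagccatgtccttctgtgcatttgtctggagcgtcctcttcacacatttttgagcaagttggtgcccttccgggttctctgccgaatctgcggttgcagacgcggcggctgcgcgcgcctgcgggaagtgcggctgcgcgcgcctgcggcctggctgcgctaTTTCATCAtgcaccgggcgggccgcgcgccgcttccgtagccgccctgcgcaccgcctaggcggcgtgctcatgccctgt
Iars: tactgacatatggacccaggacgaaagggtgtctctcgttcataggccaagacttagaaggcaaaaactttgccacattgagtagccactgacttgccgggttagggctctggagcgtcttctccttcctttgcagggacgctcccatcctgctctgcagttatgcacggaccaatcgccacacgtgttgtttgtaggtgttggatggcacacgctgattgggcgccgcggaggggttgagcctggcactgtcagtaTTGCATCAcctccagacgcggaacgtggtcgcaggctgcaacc
Tars: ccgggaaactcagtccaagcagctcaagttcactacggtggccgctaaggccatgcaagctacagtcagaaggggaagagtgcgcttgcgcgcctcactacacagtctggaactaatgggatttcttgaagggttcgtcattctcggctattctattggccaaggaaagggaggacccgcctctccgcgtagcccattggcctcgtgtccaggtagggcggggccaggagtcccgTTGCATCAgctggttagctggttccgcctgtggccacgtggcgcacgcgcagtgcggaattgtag
Yars: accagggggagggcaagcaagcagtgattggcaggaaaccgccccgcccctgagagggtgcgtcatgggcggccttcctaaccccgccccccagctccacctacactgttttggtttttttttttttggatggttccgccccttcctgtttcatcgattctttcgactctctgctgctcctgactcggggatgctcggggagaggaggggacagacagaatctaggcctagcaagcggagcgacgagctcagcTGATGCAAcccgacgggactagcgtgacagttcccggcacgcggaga

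The Aars window held 2 matches, the first beginning 112 bases before the RefSeq start and the second at base 10 of the transcript. The match began 30 bases before the start in Gars and 15 before it in Tars, and at base 8 and base 4 of the transcript in Iars and Yars. The 5 genes with a match had log2 fold changes of 0.20 to 0.41 with a median of 0.24. The 8 cytosolic genes whose windows had no match (Dars, Eprs, Farsa, Farsb, Kars, Mars, Qars and Sars) ranged from -0.15 to 0.46 with a median of -0.015. All 5 genes with a match are among the ATF4-linked ones, and none of them was called in the edgeR test on all libraries. The difference between genes with and without a match was not tested, nor was binding of ATF4. Sars, with the largest change among genes with a window, did not hold these letters in the stretch searched. Cars was not among the genes with a window.

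No mitochondrial gene passed the test, and 13 of 16 had a log2 fold change below 0. The 3 at an unadjusted p under 0.05 were the phenylalanine enzyme gene Fars2, the isoleucine gene Iars2 and the tyrosine gene Yars2. Fars2 had 58.1, 59.8, 74.1 and 59.6 CPM in BRD4780 replicates 1 to 4 and 75.1, 79.3, 74.4 and 72.6 CPM in vehicle replicates 1 to 4. Iars2 had 98.7, 93.3, 129.9 and 109.8 CPM with BRD4780 and 134, 139, 119 and 140.4 CPM with vehicle. Yars2 had 20.4, 18.8, 22.3 and 18.9 CPM with BRD4780 and 25.99, 24.4, 21.6 and 25.7 CPM with vehicle. In all 3 genes replicates 1, 2 and 4 of the treated group lay below every vehicle library, while replicate 3 lay inside the vehicle range. The log2 fold changes were -0.26 ± 0.089 for Fars2, -0.30 ± 0.11 for Iars2 and -0.28 ± 0.095 for Yars2 (SE), with adjusted p of 0.120, 0.133 and 0.118 by the edgeR test.

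Mars2, for methionine, had the lowest log2 fold change of the set at -0.32 ± 0.15 (SE), from 5.30, 6.51, 7.74 and 5.19 CPM in BRD4780 replicates 1 to 4 and 7.68, 7.55, 7.61 and 8.37 CPM in vehicle replicates 1 to 4. Rars2 (arginine, -0.24), Cars2 (cysteine, -0.19) and Nars2 (asparagine, -0.11) followed, and Pars2 (proline, -0.095), Aars2 (alanine, -0.088), Tars2 (threonine, -0.057), Vars2 (valine, -0.044), Sars2 (serine, -0.022) and Ears2 (glutamate, -0.020) lay nearer 0. The genes above 0 were Hars2 (histidine, 0.019), Wars2 (tryptophan, 0.076) and Lars2 (leucine, 0.11); after thinning to equal totals Hars2 was at -0.020 and Wars2 at -0.038. The per-library mean of the 16 genes was -0.083, -0.21, 0.019 and -0.20 in BRD4780 replicates 1 to 4 and -0.039 to 0.031 in vehicle libraries, so that the groups overlapped through replicate 3.

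Lars2 (chr9:123366927-123462666, plus strand) varied more among vehicle mice than between treatments. It had 765, 766, 765 and 759.8 CPM in BRD4780 replicates 1 to 4 and 562, 783, 900.2 and 584 CPM in vehicle replicates 1 to 4. The treated libraries were nearly equal and lay inside the vehicle range. The mean was 764 ± 2.78 CPM with BRD4780 and 707 ± 162 CPM with vehicle (SD, n = 4 each; adjusted p 0.665, edgeR). Per length of transcript it was also the most abundant of the mitochondrial genes, at 196 CPM per kilobase with BRD4780 and 182 with vehicle, where the median of the set was 9.78 and 9.93 CPM per kilobase in those groups. A stretch of 72 bases of Lars2 is 98.6% identical to the antisense gene Gm15564, so reads there could come from either. Among cytosolic genes Sars had the highest level per length, 140.3 CPM per kilobase with BRD4780 and 102 with vehicle, and the median was 26.6 and 25.4.

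The difference between the compartments was tested directly as the log2 ratio of the cytosolic to the mitochondrial gene for the same amino acid within each library, over 17 pairs. Eprs (with Ears2 and Pars2) and Fars2 (with Farsa and Farsb) each enter more than once, so the pairs are not all separate. In 15 of the 17 pairs the ratio was higher with BRD4780, with a median difference of 0.26. In the exact two-sided permutation test over the 70 arrangements of the libraries, 2 pairs had an unadjusted p under 0.05. After adjustment, 0 pairs had a p under 0.05. The smallest p possible was 0.0286, so after adjustment over 17 pairs none could pass unless many others reached it too. The adjusted test therefore cannot decide whether the compartments differ. For Yars and Yars2 the ratio was 1.69, 1.91, 1.44 and 2.05 in BRD4780 replicates 1 to 4 and 1.17, 1.37, 1.28 and 1.22 in vehicle replicates 1 to 4. For Nars and Nars2 it was 3.02, 3.27, 3.01 and 3.48 with BRD4780 and 2.87, 2.91, 2.89 and 2.87 with vehicle. In both pairs every treated library exceeded every vehicle library, giving differences of 0.51 and 0.31, each with an exact permutation p of 0.0286, the smallest the design allows, and an adjusted p of 0.139. The number of pairs with groups apart was 8 without BRD4780 replicate 3, and 4, 4 and 5 without vehicle replicates 2, 3 and 4 in turn. Leaving out a library can only keep or raise this number, and no background share for such ratios was computed. The count of 8 is not independent support, since BRD4780 replicate 3 was set apart by its low ATF4 pathway level.

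The largest ratio differences were those of cysteine, methionine and isoleucine. For Cars and Cars2 the log2 ratio was 0.86, 1.27, 0.092 and 1.38 in BRD4780 replicates 1 to 4 and -0.031, 0.22, -0.13 and -0.072 in vehicle replicates 1 to 4. That is a difference of 0.91, and it was 0.72 for Mars and Mars2 and 0.70 for Iars and Iars2, each with an exact permutation p of 0.0571 and an adjusted p of 0.139. In these 3 pairs BRD4780 replicate 3 was the treated library that lay within the vehicle range. The difference in ratio was -0.24 for Hars to Hars2 and -0.061 for Wars to Wars2, and for Wars to Wars2 it was 0.074 after thinning to equal totals. Hars and Hars2 lie head to head on opposite strands of chromosome 18 and share 195 bases of exon, so reads from that stretch could be counted for either if strand was not used.

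**Figure D4:**
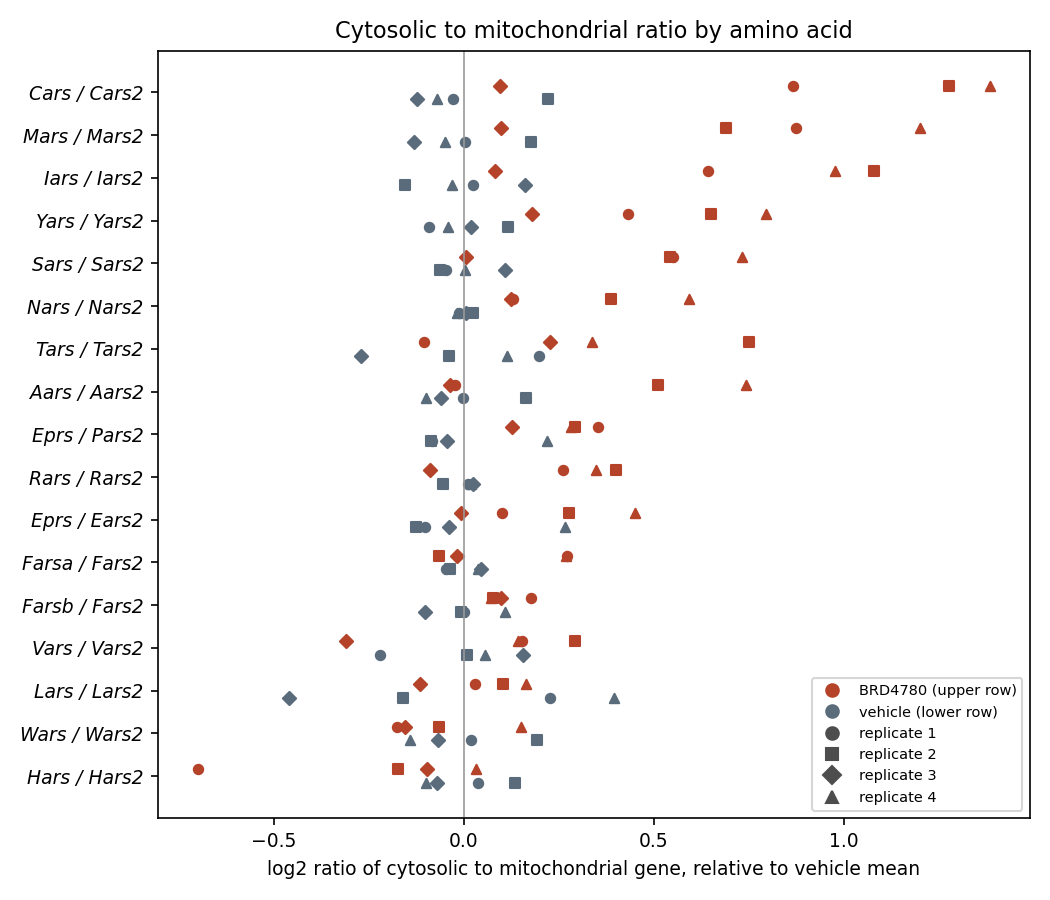
Log2 ratio of the cytosolic to the mitochondrial gene for each amino acid in each library, relative to the mean of the vehicle libraries, with BRD4780 libraries (red) above vehicle libraries (grey). The groups are apart for Yars to Yars2 and Nars to Nars2, and BRD4780 replicate 3 (diamond) is among the vehicle points for Cars, Mars, Iars and Sars.

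BRD4780 replicate 3 was the lowest treated library for 12 of 20 cytosolic genes, 11 of them among the 13 ATF4-linked ones, and the highest for 6 of 20 cytosolic genes and for 10 of 16 mitochondrial genes. It lay inside the vehicle range for 15 of the 20 and 15 of the 16. BRD4780 replicate 4, the library with the fewest counts, was the highest treated library for 11 of the 13 ATF4-linked genes; thinning every library to 5738634 counts left Cars as the only synthetase called.

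Since BRD4780 replicate 3 was set apart by its low ATF4 pathway level, counts without it describe the other libraries and are not independent support. Without it, Cars, Gars, Iars, Mars, Sars and Yars were called higher and Farsb and Hars lower among the cytosolic genes, and Fars2, Iars2, Mars2, Rars2 and Yars2 were called lower among the mitochondrial genes (adjusted p under 0.05, edgeR). Leaving out any other library gave 0 calls in both sets. That is 6 of 20 higher and 2 of 20 lower, and 5 of 16 lower, against a background that was itself raised to 12.1% of genes higher and 11.3% lower. Cars was then 1.84-fold higher (log2 fold change 0.88 ± 0.094, SE, adjusted p 0.000398), Sars 1.49-fold higher and Iars2 at 0.754 of the vehicle level. The medians were 0.22 for the cytosolic and -0.12 for the mitochondrial genes. Lars2, Hars2 and Wars2 were again not called.

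Of the genes that work beside the synthetases, 4 lists had 0 calls in the edgeR test, where the background was 2.92%; the ATF4 pathway list is given after them. Without BRD4780 replicate 3, where that background was 12.1% higher and 11.3% lower, 2 of 17 charging partners and 7 of 20 mitochondrial translation genes were called lower, and 1 of 20 mitochondrial translation genes and 3 of 8 elongation genes were called higher. Of the 3 scaffold genes of the multisynthetase complex, Eef1e1 had 12.6, 13.8, 14.1 and 12.9 CPM in BRD4780 replicates 1 to 4 and 15.97, 16.02, 15.3 and 15.5 CPM in vehicle replicates 1 to 4, with every treated library below every vehicle library (log2 fold change -0.23, adjusted p 0.152, edgeR). Aimp1 and Aimp2, the other scaffold proteins, had log2 fold changes of 0.16 and 0.013. Among 17 genes of tRNA charging partners, the smallest p values belonged to the peptidyl-tRNA hydrolase Ptrh2 (-0.28) and to Qrsl1 (-0.37), a subunit of the mitochondrial amidotransferase that makes glutaminyl-tRNA. The adjusted p was 0.102 and 0.121 for these genes by the edgeR test. Ptrh2 was apart downward as well. That is 1 of 17 charging partners and, with Eef1e1, 1 of 3 scaffold genes, where 5.16% of all genes were apart downward.

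The medians for mitochondrial translation and cytosolic elongation had the same signs as those for the synthetases of their compartments. Over 20 mitochondrial translation genes the median log2 fold change was -0.18, with 17 below 0 and 0 called by edgeR. DESeq2's Wald test called 3 of the 20 lower, where it called 3.69% of all genes lower. After thinning to equal totals edgeR called 1 of the 20 lower, where the share over all genes was 0.774%. The elongation factor Tsfm had 39.8, 35.7, 47.8 and 38.3 CPM in BRD4780 replicates 1 to 4 and 52.4, 57.0, 50.7 and 51.6 CPM in vehicle replicates 1 to 4, apart downward (log2 fold change -0.39 ± 0.097, SE, adjusted p 0.0605, edgeR). The ribosome recycling factor Gfm2 (-0.36) and Hsd17b10 (-0.21), a subunit of mitochondrial RNase P, followed. Hsd17b10 was apart downward too, so 2 of the 20 genes were, where 5.16% of all genes were. Over 8 cytosolic elongation genes the median was 0.20, with 6 above 0 and 0 called by edgeR. Leading them were Eef1d (0.30) and Eef1b2 (0.23) of the exchange complex that reloads the elongation factor with GTP. With these stood Eif5a2 (0.31), a relative of the elongation factor eIF5A. Eif5a2 was apart upward, 1 of the 8, where 7.44% of all genes were.

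The ATF4 pathway list, whose members include the transcription factors and the genes of serine, one-carbon and asparagine metabolism, had 12 of 28 genes called higher and 0 lower, with a median of 0.81, against the background of 2.3%. Leaving out 1 library at a time, the lowest count was 4 higher, without vehicle replicate 1 or 2. In those 2 fits 0.398% and 0.192% of all genes were called higher. The largest count was 20 higher, with 2 lower, without BRD4780 replicate 3. There 12.1% of all genes were called higher and 11.3% lower, so the background moved with the count. The transcription factor gene Atf5 had 133, 117, 48.8 and 142 CPM in BRD4780 replicates 1 to 4 and 14.4, 17.7, 14.8 and 14.6 CPM in vehicle replicates 1 to 4. Atf5 rose 7.11-fold, the mitochondrial folate enzyme gene Mthfd2 5.76-fold and Atf4 itself 1.52-fold, with adjusted p of 0.00207, 0.00468 and 0.0106 by the edgeR test. The groups were apart in all 3, which were named for having the smallest p of the list. Over the whole list 13 of 28 genes were apart upward and 1 downward, against 7.44% and 5.16% of all genes. In all 3 named genes BRD4780 replicate 3 was the lowest treated library. That library was set apart by the mean of this same list, so its place in these genes is no separate result. Cars changed 1.65-fold, and the median log2 fold change over the ATF4-linked synthetases was 0.24. A link between the synthetases and the ATF4 pathway genes was not tested.

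Some values rest on sequence shared with other genes. An exon overlap with a gene on the opposite strand was found for 13 of the 36 genes in GENCODE M21, the longest being 2034 bases between Iars2 and Rab3gap2; Mars shares 68 bases with Ddit3, an ATF4 target. Aars shares 1326 bases with Exosc6 on the same strand. Cars, the only gene called, shares 211 bases with the processed pseudogene Gm15580 on the opposite strand. A stretch of 64 bases of Cars is 95.3% identical to Ftl1. A processed pseudogene of Iars, Gm4849, matches 1656 bases of it at 96.0% identity. The strand setting of the counting is not known here, so the split of reads in the opposite-strand stretches is uncertain. For Aars with Exosc6 and Iars with Gm4849, which share a direction, it would be uncertain under any strand setting.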

How the data were processed

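Kidney poly(A) RNA of 8 mice was sequenced in bulk. The deposited values are expected counts per gene, estimated by the authors and not normalized; per the submitters' processing notes the tools were Picard, RSEM 1.3.0 and STAR 2.5.2b, and 2 builds appear, mm10 and hg19, without roles. The sources used here do not give an annotation or a strand setting. RSEM divides reads that match several genes among them, so values of overlapping or near-identical genes are less certain.

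Groups came from the treatment label. The 22121 table lines were merged by symbol to 21759 genes (343 symbols stood on several lines, no synthetase among them), and 1 column of values was not used. Counts were rounded, filtered with filterByExpr (minimum count 10), scaled by TMM and tested in edgeR 4.0.16 by the quasi-likelihood test over 13474 genes, with Benjamini-Hochberg adjustment and a threshold of 0.05. Levels are TMM-scaled CPM, and SE is the size of the log2 fold change over the square root of F. Ratios used log2(CPM + 0.5) and an exact permutation test over samples with adjustment over 17 pairs. Total counts were 5738647 to 28547737 per library; a floor of 3 counts corresponds to 0.105 to 0.523 CPM, and every synthetase gene lay above it in every library. The 4 mice per group are separate animals per the design text, and no 2 libraries agreed within sampling noise.

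Alternatives were DESeq2 1.42.0 size factors and its Wald test, limma-voom (limma 3.58.1), no filter, thinning to equal totals, another offset in the ratios, leaving out each library, and, added later, a block for numbers that titles share. The test script was checked on simulated counts. Coordinates and overlaps are from GENCODE M21 on GRCm38, near-identical stretches (at least 60 bases at 95% identity) from BLAST 2.17.0, and promoters from RefSeq on GRCm38.p6. All 36 synthetases are named, plus the 3 genes of smallest p in each of 5 related lists, except 1 gene that is not reported here. The members and lists were chosen with earlier results of these data known.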

Additional observations from a re-analysis of the deposited data

Results flagged for a closer look

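In 4 of 110 groups of 4 libraries examined, 1 library lay far from the other 3 by Dixon's criterion, about 1 in 20 being expected by chance. Fars2, the mitochondrial phenylalanine enzyme gene, had 74.1 CPM in BRD4780 replicate 3 and 58.1 to 59.8 CPM in the other treated libraries. Kars, the lysine enzyme gene, had 84.0 CPM in vehicle replicate 4 and 91.0 to 92.0 CPM in the other vehicle libraries. Mars2, the mitochondrial methionine enzyme gene, had 8.37 CPM in vehicle replicate 4 and 7.55 to 7.68 CPM in the others. The log2 ratio of Eprs to Pars2 was 4.07 in vehicle replicate 4 and 3.77 to 3.81 in the others.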

How the results depend on the processing

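Under every alternative run, Cars and both medians kept their sign. The log2 fold changes of 8 uncalled genes near 0 (Vars, Wars, Ears2, Hars2, Sars2, Tars2, Vars2 and Wars2) and the ratio differences of 3 pairs (those for leucine, valine and tryptophan) changed sign under at least 1. DESeq2's Wald test called 864 genes higher (6.41%) and 497 lower, with 3 cytosolic synthetases higher (Cars, Mars and Sars); limma-voom called 204 genes higher and 0 cytosolic synthetases. After thinning to equal totals, 1 cytosolic to mitochondrial ratio had its groups apart instead of 2. Leaving out 1 library at a time, genes called higher ranged from 26 to 1647 and lower from 5 to 1537, cytosolic synthetases higher from 0 to 6 and lower from 0 to 2, mitochondrial synthetases lower from 0 to 5, and ratios with groups apart from 2 to 8. The upper ends are those without BRD4780 replicate 3; the lowest gene counts are those without vehicle replicate 2. Without vehicle replicates 2, 3 and 4 in turn, 4, 4 and 5 ratios were apart, a count that leaving out a library can only keep or raise. With 1 library left out, the median log2 fold change ranged from 0.11 to 0.22 over cytosolic and from -0.13 to -0.060 over mitochondrial synthetases. In the fit with a replicate block, described below, those medians were 0.10 and -0.16. The median over all genes was highest in that fit, at 0.0358. The cause of these shifts was not tested. Replicate numbers pair nothing, but in the titles BRD4780 replicate 1 shares a number with vehicle replicate 2 and BRD4780 replicate 2 with vehicle replicate 4; the labels do not say what it marks, and the deviations of these libraries correlated at -0.058 and -0.33. With that number as a replicate block, a fit added after seeing the data in which only those 4 libraries inform the difference, 57 genes were higher, 90 lower, and 0 synthetases were called (Cars log2 fold change 0.76, adjusted p 0.0815, edgeR).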
